A study of Mus musculus with 50 samples.

Results

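The Zic and Sall genes followed here through RNA and chromatin of mouse embryonic stem cells (ESCs) were Zic1, Zic2, Zic4, Zic5, Sall1, Sall2, Sall3 and Sall4. These 8 of the 18055 genes of the RNA table were chosen by name and not by a cutoff on a measured value, with earlier results of these data known. Polycomb repressive complex 2 (PRC2) writes methylation on lysine 27 of histone H3 through its catalytic subunit EZH2 or EZH1, and SUZ12 is a core subunit that marks where the complex sits. H3K27me3 is the trimethylated form and marks silenced developmental genes, and H3K27ac is the acetylated form of the same residue and marks active promoters and enhancers.

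The lines derive from E14TG2a ESCs (WT) and were grown with serum, LIF and the 2 inhibitors known as 2i. Ezh2 KO cells carry a CRISPR/Cas9 deletion of Ezh2 and keep EZH1, and Ezh1/2 dKO cells lack both enzymes. Ezh2 Y726D and Ezh2 R685C cells carry point mutations of Ezh2 in cells that also lack Ezh1, so that the mutant EZH2 is the sole catalytic subunit left to PRC2. The Y726D protein is catalytically inactive, while the R685C protein keeps part of its activity. The mutant lines are engineered clones, and a difference between lines cannot be told apart from a difference between clones. RNA (SMART-seq) was measured with 2 libraries in each of 4 lines, all but Ezh2 R685C, and nothing in the labels says that these came from separate cultures, so p-values measure the spread between libraries. ChIP-seq peak lists of SUZ12 and H3K27me3 covered all 5 lines, those of H3K27ac covered the 4 mutant lines, and each came from 1 library, so peaks were compared without a test. HA-tagged human EZH1, put back into Ezh1/2 dKO cells by transfection, was profiled through its tag, with untagged Ezh1/2 dKO cells as background.

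ZIC proteins are zinc-finger transcription factors related to the GLI effectors of Hedgehog signalling and are known from the neural plate, the dorsal neural tube and the neural crest. SALL proteins are zinc-finger factors of the spalt family that recruit the NuRD deacetylase complex. SALL4 belongs to the pluripotency network of ESCs, SALL1 is required in the developing kidney, and ZIC1 and ZIC4 act together in the cerebellum. In these ESCs Zic1 and Zic4 were hardly read, while Zic2, Zic5 and the Sall genes were transcribed, Zic5 and Sall2 at low levels.

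Zic1 and Zic4 lie head to head on chromosome 9 (mm9). Zic1 spans chr9:91252896-91260648 on the minus strand and Zic4 spans chr9:91257251-91284186 on the plus strand, and the annotated genes share 3398 bp. Zic5 (chr14:122856017-122864899, minus) and Zic2 (chr14:122874604-122879074, plus) form a second head-to-head pair, with main transcription start sites (TSSs) 9705 bp apart. Sall1 lies at chr8:91551147-91568061, Sall2 at chr14:52930847-52948437 and Sall4 at chr2:168573832-168593443, all on the minus strand, as is Sall3. The 200 bases before the 5′ end of 4 members, and 200 bases of a site inside an intron of Zic4 that carried both SUZ12 and H3K27ac in Ezh2 Y726D ESCs, show how much these promoters differ in CpG dinucleotides, which are printed in capitals (mm9 reference sequence, each on the strand of its gene).
Zic1, chr9:91260649-91260848, minus strand: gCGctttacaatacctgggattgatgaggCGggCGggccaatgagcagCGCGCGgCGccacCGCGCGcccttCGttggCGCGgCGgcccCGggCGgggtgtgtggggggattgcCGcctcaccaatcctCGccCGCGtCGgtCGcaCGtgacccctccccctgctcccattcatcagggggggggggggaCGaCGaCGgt
Zic4 internal site, chr9:91276270-91276469, plus strand: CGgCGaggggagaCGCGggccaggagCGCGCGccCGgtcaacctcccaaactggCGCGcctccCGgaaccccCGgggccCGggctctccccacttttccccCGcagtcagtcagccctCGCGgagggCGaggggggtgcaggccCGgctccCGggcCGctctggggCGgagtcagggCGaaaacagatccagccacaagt
Zic2, chr14:122874404-122874603, plus strand: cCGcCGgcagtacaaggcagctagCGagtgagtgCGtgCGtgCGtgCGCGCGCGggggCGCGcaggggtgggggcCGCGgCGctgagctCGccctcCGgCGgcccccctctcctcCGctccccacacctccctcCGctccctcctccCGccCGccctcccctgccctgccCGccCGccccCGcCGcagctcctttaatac
Zic5, chr14:122864900-122865099, minus strand: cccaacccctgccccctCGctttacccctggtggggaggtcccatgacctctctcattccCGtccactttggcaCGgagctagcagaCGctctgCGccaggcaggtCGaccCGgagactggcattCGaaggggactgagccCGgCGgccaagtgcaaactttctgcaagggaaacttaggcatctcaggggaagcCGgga
Sall1, chr8:91568062-91568261, minus strand: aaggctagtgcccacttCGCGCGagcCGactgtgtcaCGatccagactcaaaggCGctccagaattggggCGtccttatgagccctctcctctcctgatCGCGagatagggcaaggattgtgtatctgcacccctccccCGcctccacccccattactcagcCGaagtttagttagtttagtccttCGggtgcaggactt
The Zic1 and Zic2 windows held 26 CpG each, and 8.02% of 15591 gene promoters held as many or more in the same 200 bases. The Zic1 window lies inside the annotated Zic4 gene. The Zic4 internal site held 22, a number reached by 14.1% of promoters. Zic5 held 11 and Sall1 held 12, numbers reached by 50.4% and 46.5% of promoters.

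The corresponding window of Sall3 (chr18:81163115-81183317) held 30 CpG (4.15% of promoters held as many), while that of the upstream start site of Sall2 held 1 (96.4%).

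The RNA libraries held 3604123 to 5181553 reads on genes, and the log2 values of the replicates correlated across genes with r of 0.953 to 0.978. Ezh2 RNA stood at normalized counts of 598 and 546 in WT, at 1 read in each Ezh2 KO library, at 0.824 and 1.78 in Ezh1/2 dKO and at 422 and 613 in Ezh2 Y726D ESCs, and Ezh1 RNA at 227 and 377 in WT, 14.01 and 20.4 in Ezh1/2 dKO and 24.1 and 15.7 in Ezh2 Y726D ESCs, as the labels say. All 8 ESC markers examined had reads in every line. Their summed normalized counts were 9300 to 10611 in WT, 9359 to 10477 in Ezh2 KO, 8674 to 8734 in Ezh1/2 dKO and 9011 to 9563 in Ezh2 Y726D ESCs. Of the 8 Zic and Sall genes, 6 (Zic2, Zic5, Sall1, Sall2, Sall3 and Sall4) reached the mean normalized count of 5 needed for a test among 13872 genes, and Zic1 and Zic4 did not. A gene was called changed at a Benjamini-Hochberg adjusted p under 0.1 over all 13872 genes (limma) and a change of 1 or more on the log2 scale in either direction.

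In WT ESCs the 8 genes covered the whole range from abundant to unread. On the scale of normalized count per kb of merged exons, Sall4 was highest at a level of 471 ± 78.3 (SD, n = 2), followed by Sall1 at 164 ± 21.5, Sall3 at 64.5 ± 8.23 and Zic2 at 41.4 ± 3.19. Each of these neighbours stood apart by more than the spread of the libraries. Sall2 at 7.30 ± 0.951 and Zic5 at 6.88 ± 4.16 could not be ordered, since their libraries overlapped. Zic1 followed at 0.338 ± 0.478, and Zic4 had no read in WT.

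**Figure D1:**
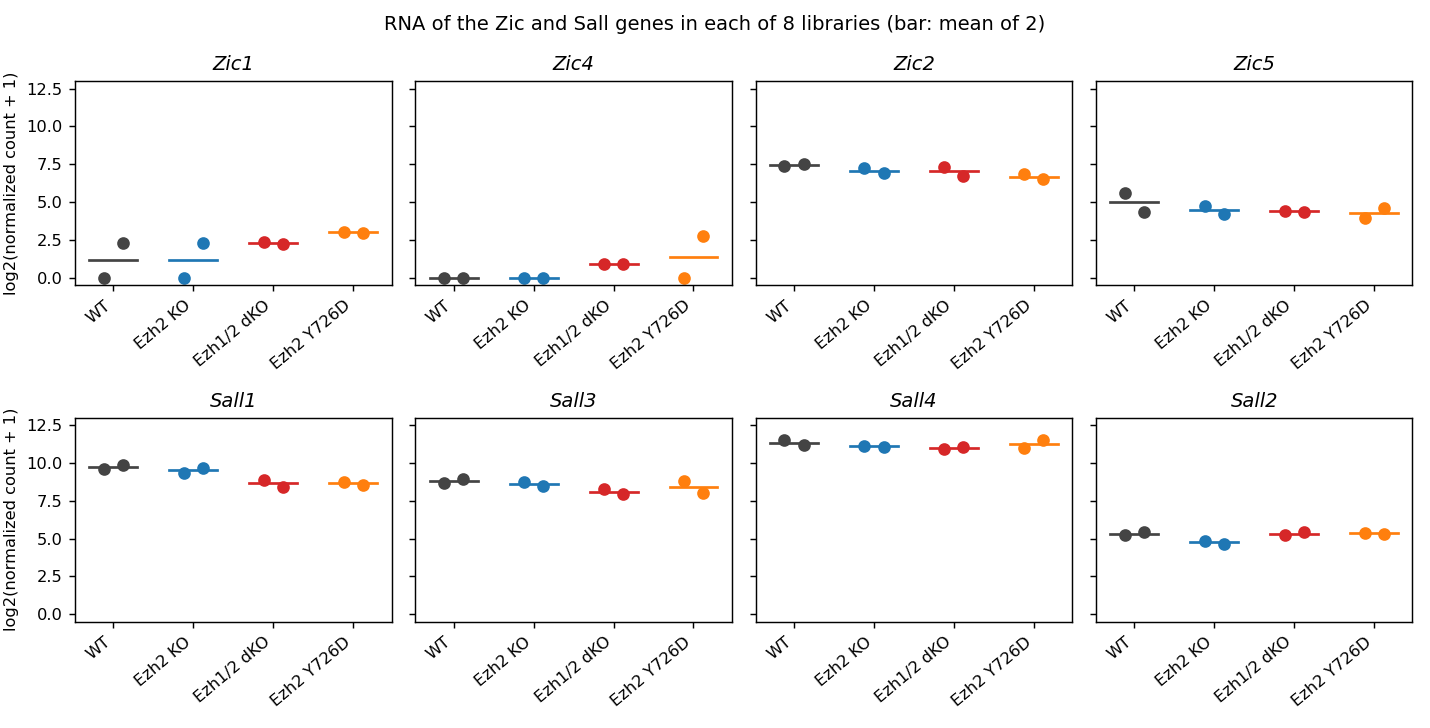
RNA of each gene as log2(normalized count + 1) in each of the 8 libraries, with 1 panel per gene, points for libraries and bars for the mean of 2. Sall1 is lower in both Ezh1/2 dKO and both Ezh2 Y726D libraries (342 to 481 normalized counts) than in both WT libraries (783 and 943). Zic1 and Zic4 are the lowest genes in every line, at 0 to 7.13 normalized counts, with the highest Zic1 points in Ezh2 Y726D ESCs.

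Sall1 RNA fell in Ezh1/2 dKO and in Ezh2 Y726D cells, and its difference in Ezh2 KO cells did not pass the test. It stood at normalized counts of 783 and 943 in WT, 660 and 809 in Ezh2 KO, 481 and 342 in Ezh1/2 dKO and 432 and 373 in Ezh2 Y726D ESCs. The Ezh1/2 dKO and Ezh2 Y726D libraries all lay below the WT and Ezh2 KO libraries, and WT and Ezh2 KO overlapped. In Ezh1/2 dKO ESCs Sall1 fell by 1.08 on the log2 scale (SE 0.20, 2.12-fold lower, limma with Benjamini-Hochberg adjusted p = 0.0310), and in Ezh2 Y726D ESCs it fell by 1.10 (SE 0.20, 2.14-fold lower, limma adjusted p = 0.0357). In Ezh2 KO ESCs, which keep EZH1, the log2 fold change was -0.23 (SE 0.20, limma adjusted p = 0.789). These 3 comparisons share the WT libraries.

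Sall1 was the only one of the 6 tested members called in any comparison with WT, with limma, edgeR and DESeq2 alike. In Ezh2 KO ESCs none of the 3 tools called a member, and 0 had an unadjusted limma p under 0.05. Over all tested genes, 0.389% were called lower and 3.63% higher in Ezh1/2 dKO, 1.06% lower and 1.66% higher in Ezh2 Y726D, and 0.31% lower and 0.0937% higher in Ezh2 KO ESCs. The Ezh1/2 dKO calls were 503 higher and 54 lower, and 290 and 129 with quantile normalization. Against Ezh2 KO, Sall1 had log2 fold changes of -0.85 in Ezh1/2 dKO (SE 0.20, limma adjusted p = 0.0707) and -0.86 in Ezh2 Y726D ESCs (SE 0.20, limma adjusted p = 0.0668), which passed the limit on p but not that on the fold (0.195% and 1.72% of genes were lower by the limit on p alone). The limma adjusted p rose over that limit with quantile normalization (0.189 and 0.116) and ranged from 0.138 to 0.528 and from 0.0529 to 0.342 with single libraries left out, the highest being without Ezh1/2 dKO replicate 2 and without Ezh2 KO replicate 2. With a replicate block the limma adjusted p of Sall1 also rose over 0.1 in both comparisons with Ezh2 KO. No member was called in these comparisons by limma, edgeR or DESeq2, with 1 at an unadjusted limma p under 0.05 in each, and 0.0577% and 1.21% of genes were called lower and 3.52% and 2.31% higher over all tested genes. Between Ezh2 Y726D and Ezh1/2 dKO, where 1.49% of genes were called lower and 0.187% higher, no member was called by the 3 tools or had an unadjusted limma p under 0.05, and Sall1 differed by -0.02 (SE 0.20, limma adjusted p = 0.986), which does not show that the lines act alike.

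With 2 libraries per line the Sall1 calls rested on single libraries. In Ezh1/2 dKO ESCs the call was lost without WT replicate 2 (log2 fold change -0.95, limma adjusted p = 0.0875, under the limit on the fold), without Ezh1/2 dKO replicate 1 (-1.33, limma adjusted p = 0.123) and without Ezh1/2 dKO replicate 2 (-0.84, limma adjusted p = 0.292). In Ezh2 Y726D ESCs it was lost without WT replicate 2 (-0.96, limma adjusted p = 0.106), without Ezh2 Y726D replicate 2 (-0.99, limma adjusted p = 0.116) and in a fit of only the 4 libraries compared (limma adjusted p = 0.133). Quantile normalization ended the Ezh1/2 dKO call (-0.97, limma adjusted p = 0.0738).

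RNA of marker genes of other cell types differed between the same lines. The summed normalized counts of 8 primitive endoderm markers were 21.3 to 51.0 in WT, 10.5 to 35.8 in Ezh2 KO, 153 to 178 in Ezh1/2 dKO and 68.2 to 81.1 in Ezh2 Y726D ESCs, with Gata6, Sox17 and Foxa2 at 0 in Ezh2 KO, Sox17 and Foxa2 at 0 in Ezh2 Y726D and 8 of 8 read in both libraries of Ezh1/2 dKO. Those of 8 trophectoderm markers were 345 to 443, 427 to 576, 663 to 923 and 605 to 1242 in the same order, and those of the 6 fibroblast markers in the table, of 8 listed, 45.3 to 58.7, 28.2 to 54.2, 150.02 to 209 and 126 to 187, with Col1a2, Lum and Dcn at 0 in WT, Lum at 0 in Ezh2 KO and Lum and Dcn at 0 in Ezh2 Y726D. The 6 primitive streak and mesoderm markers in the table, of 8 listed, summed to 72.2 to 77.4, 49.1 to 57.1, 89.8 to 136 and 104 to 283, and the 5 neural markers in the table, of 7 listed, to 545 to 1353, 546 to 882, 879 to 1133 and 559 to 927, the neural ranges overlapping and Sox1 at 0 in Ezh2 KO. Marker RNA in bulk libraries does not show that such cells were present, and any part of them in the Sall1 result was not tested. In bulk RNA fewer cells that express a gene and less of its RNA per cell cannot be told apart.

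Sall4, which holds ESCs in the pluripotent state, was the most abundant member in every line. It stood at 2915 and 2302 normalized counts in WT, 2263 and 2119 in Ezh2 KO, 1988 and 2140 in Ezh1/2 dKO and 2067 and 2933 in Ezh2 Y726D ESCs. Both Ezh2 KO and both Ezh1/2 dKO libraries lay below both WT libraries, and Ezh2 Y726D spanned them. Its log2 fold changes against WT were -0.24, -0.33 and -0.07 (SE 0.18), none past the test.

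Sall3, a factor of neural and limb development, stood at 404 and 484 normalized counts in WT, 430 and 360.0 in Ezh2 KO, 311 and 244 in Ezh1/2 dKO and 450 and 253 in Ezh2 Y726D ESCs. The Ezh1/2 dKO libraries lay below the WT and Ezh2 KO libraries, while the pair of Ezh2 Y726D libraries lay on either side of WT replicate 1. The log2 fold change in Ezh1/2 dKO was -0.68 (SE 0.27) and did not pass after adjustment (limma adjusted p = 0.216), and those in Ezh2 KO and Ezh2 Y726D were -0.17 and -0.39.

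Sall2, a less studied member with roles in neural and eye development, was read 25 to 47 times per library. It stood at 36.0 and 43.3 normalized counts in WT, 28.2 and 24.2 in Ezh2 KO, 37.1 and 41.7 in Ezh1/2 dKO and 41.0 and 39.2 in Ezh2 Y726D ESCs. The Ezh2 KO libraries were the lowest, and the other 3 lines overlapped. The log2 fold changes against WT were -0.58, -0.01 and 0.02 (SE 0.34), and the limma adjusted p in Ezh2 KO was 0.678. The direction in Ezh1/2 dKO turned to 0.07 with upper-quartile rescaling, and that in Ezh2 Y726D to -0.09 with quantile normalization.

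Zic2, which is needed for forebrain and neural tube formation, stood at 164 and 183 normalized counts in WT, 152 and 119.02 in Ezh2 KO, 159 and 107 in Ezh1/2 dKO and 112 and 89.5 in Ezh2 Y726D ESCs. Every mutant library lay below both WT libraries, and the lines without EZH2 overlapped each other. The log2 fold changes were -0.36, -0.41 and -0.78 (SE 0.27), and the last, the lowest of the 3, missed the threshold (limma adjusted p = 0.214). Zic5, its neighbour and a factor of neural crest development, stood at 48.0 and 19.3 normalized counts in WT and between 14.3 and 26.1 in the 6 mutant libraries, with 16 to 36 reads in each of the 8 libraries. All lines overlapped, and its log2 fold changes were -0.50, -0.58 and -0.70 with an SE of 0.53. Without WT replicate 1 the first 2 turned to 0.14 and 0.06.

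Zic1 and Zic4, the members silent in ESCs, were hardly read in any line. Zic1 had 0 and 4 reads in WT, 0 and 4 in Ezh2 KO, 5 and 4 in Ezh1/2 dKO and 8 and 6 in Ezh2 Y726D ESCs. Summed over a line and scaled, the ratio of Zic1 to WT was 0.899 in Ezh2 KO (95% counting interval 0.167 to 4.82), 1.72 in Ezh1/2 dKO (0.480 to 7.64) and 3.11 in Ezh2 Y726D ESCs (0.975 to 12.96), and each interval includes no change. These intervals cover counting error only. Zic4 had no read in the 4 WT and Ezh2 KO libraries, 1 read in each Ezh1/2 dKO library, and 0 and 5 in Ezh2 Y726D ESCs. A count of 0 allows up to 3 reads, which is 2.89 to 4.002 normalized counts in these WT and Ezh2 KO libraries. Reads were counted without strand, so reads on exons of both genes cannot be assigned to either. The 3398 bp that the annotated genes share include introns, and how much of them is exon of both was not determined. A change of Zic1 within these intervals was not detectable at this depth, and the Zic4 reads were too few for a ratio.

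Of the 6 tested members, 3 (Zic2, Sall2 and Sall4) had both libraries below both WT libraries in Ezh2 KO, where 17.6% of all tested genes did. In Ezh1/2 dKO ESCs 4 did (Zic2, Sall1, Sall3 and Sall4, 24.5% of genes), and in Ezh2 Y726D ESCs 2 did (Zic2 and Sall1, 18.1% of genes). The median log2 fold change of the 6 was -0.30, -0.50 and -0.55 in the 3 mutant lines, beside medians of -0.01, 0.01 and -0.01 over all tested genes. None of the 6 had both libraries above both WT libraries, which 18%, 28% and 19% of genes had. Against Ezh2 KO, Sall1 and Sall3 lay below in Ezh1/2 dKO (26.9% of genes) and Zic2 and Sall1 in Ezh2 Y726D ESCs (22.1%), and Sall2 lay above in both (26.6% and 22.2%).

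**Figure D2:**
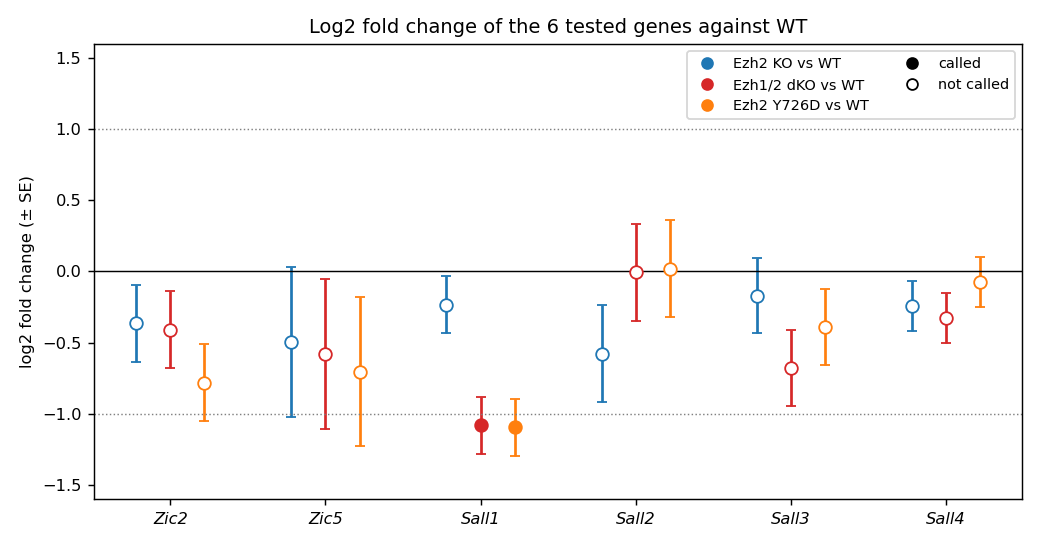
Log2 fold change against WT (± SE) of the 6 tested genes in 3 mutant lines, with filled points for called genes and dotted lines at the fold limit. The filled points are Sall1 at -1.08 (Ezh1/2 dKO) and -1.10 (Ezh2 Y726D), and the other SE bars are wide beside the changes.

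On chromatin the members fell into those with broad PRC2 coverage (Zic1 and Zic4), those with shorter PRC2 peaks in WT (Zic2, Sall2 and Sall3) and those with none (Zic5, Sall1 and Sall4). A member was counted as bound where a peak of p at most 1e-10 lay within 5 kb of any of its annotated TSSs. SUZ12 peaks lay at 5 of 8 members in WT (17.6% of 15591 promoters), at 2 in Ezh2 KO (4.97%), at 3 in Ezh2 Y726D (12.5%), at 2 in Ezh2 R685C (10.1%) and at 0 in Ezh1/2 dKO ESCs (1.17%). H3K27me3 peaks lay at 5 members in WT (22.6%), 2 in Ezh2 KO (17.5%), 1 in Ezh2 Y726D (1.37%), 5 in Ezh2 R685C (28.8%) and 0 in Ezh1/2 dKO ESCs (0.109%). The peak in Ezh2 Y726D, at Zic4, was centred 5082 bp from the nearest TSS, and only 300 bp of it entered the window. H3K27ac peaks lay at 5 members in Ezh2 KO (49.2%), 6 in Ezh1/2 dKO (37.4%), 7 in Ezh2 Y726D (60.8%) and 5 in Ezh2 R685C ESCs (59.3%). These lists differ in length genome-wide, from 317 to 5404 peaks for SUZ12, 53 to 22245 for H3K27me3 and 17618 to 41185 for H3K27ac, and the reads behind them are not known, so a site without the target and a peak missing from a short list cannot be told apart.

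**Figure D3:**
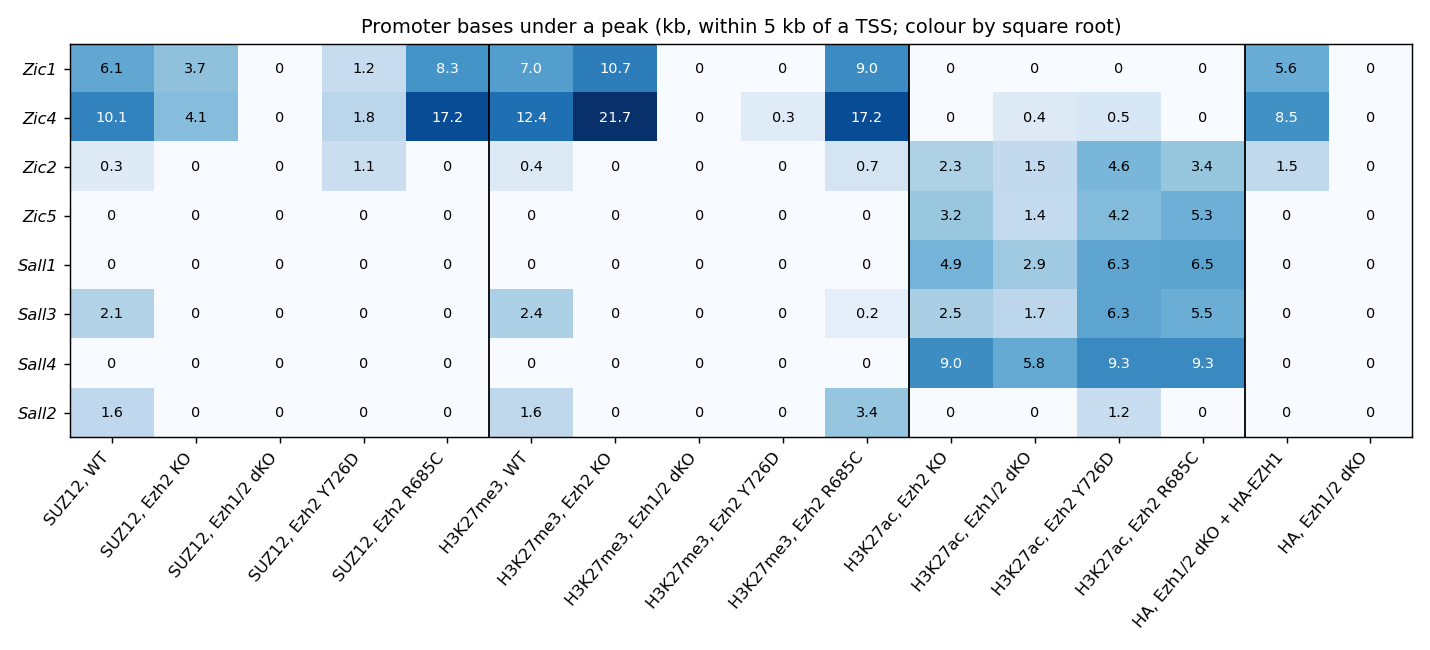
Bases (kb) within 5 kb of a TSS that lie under a peak, for each gene (rows) and each target and line (columns), with darker cells for longer coverage. Zic1 and Zic4 carry SUZ12 and H3K27me3 in WT, Ezh2 KO and Ezh2 R685C ESCs, and Zic5, Sall1 and Sall4 carry H3K27ac alone.

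The Zic1 and Zic4 pair was among the most heavily covered PRC2 sites. In WT a SUZ12 peak of 5021 bp (chr9:91255951-91260971) ran from 0.365 kb before the Zic1 TSS to 4.655 kb after it, and ranked 59 of 5404 by length and 16 by p. It contains the Zic1 window of 26 CpG printed above. Over the pair with 5 kb on each side, 41.3 kb in all, SUZ12 covered 24.4% in WT, 9.85% in Ezh2 KO, 4.28% in Ezh2 Y726D and 44.7% in Ezh2 R685C ESCs, and none in Ezh1/2 dKO ESCs. H3K27me3 covered 32.8% in WT, 59.1% in Ezh2 KO, 1.85% in Ezh2 Y726D and 48.5% in Ezh2 R685C ESCs, and again none in Ezh1/2 dKO ESCs.

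In Ezh2 KO ESCs the SUZ12 peaks over Zic1 were shorter, the longest being 2167 bp, whereas H3K27me3 formed a single stretch of 10805 bp over the start of Zic1 (rank 85 of 8956 by length). The WT list gave the same region as separate H3K27me3 peaks, the longest of them 2735 bp at Zic1 and 4147 bp at Zic4. The highest -log10 p at Zic1 was 21.8 in WT, 461 in Ezh2 KO and 487 in Ezh2 R685C ESCs, each against the background of its own library. These values do not measure the amount of H3K27me3 across lines. Peak lengths and coverages depend on the same background and do not measure its amount or spread either. With Drosophila spike-in chromatin, the paper reports reduced H3K27me3 in Ezh2 KO ESCs, with less spread outside SUZ12 peaks. Its discussion describes the level inside SUZ12 peaks as comparable to that of WT. Tagged EZH1 in Ezh1/2 dKO cells gave peaks, taken with no limit on p, over 20.6% of the pair, and the untagged cells gave none there.

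**Figure D4:**
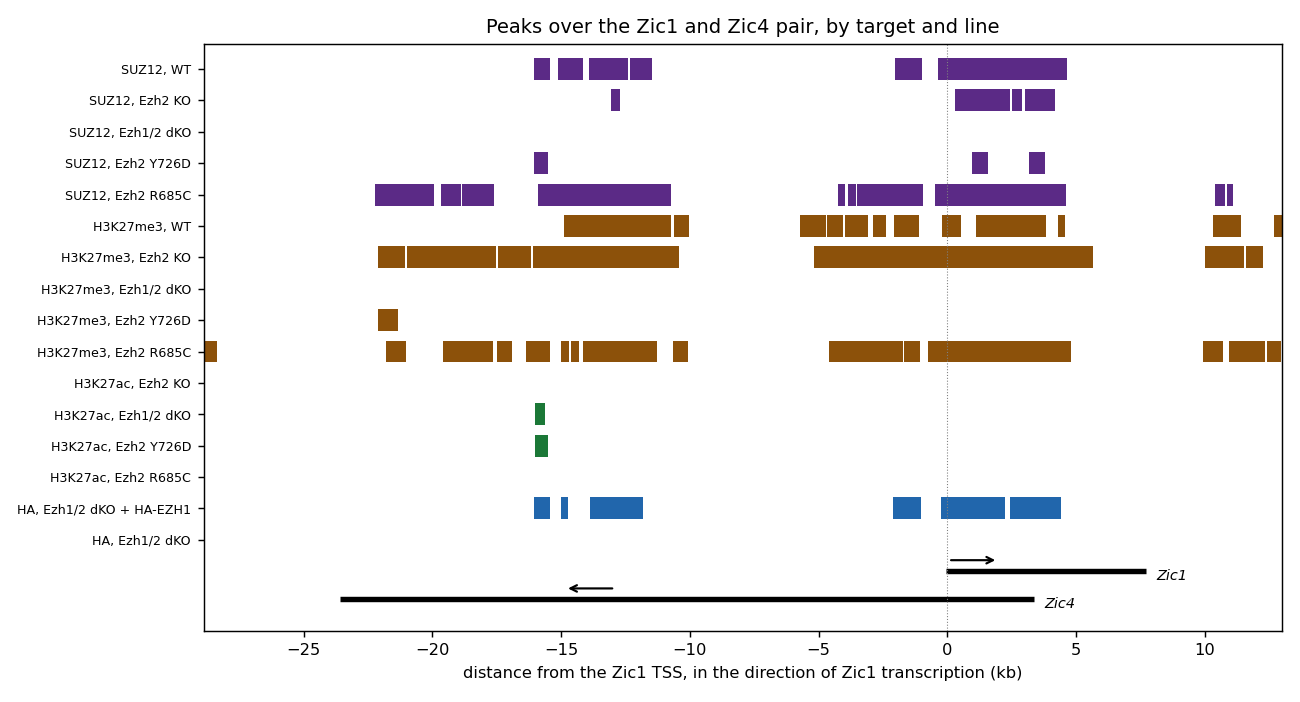
Peaks of each target and line along the Zic1 and Zic4 pair, with distance from the Zic1 TSS in the direction of Zic1 transcription (kb) on the x axis and the genes as black lines. The Ezh1/2 dKO rows for SUZ12 and H3K27me3 are empty, and the H3K27ac peaks of Ezh1/2 dKO and Ezh2 Y726D ESCs lie about 16.0 kb from the Zic1 TSS inside Zic4.

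An intron of Zic4 was the sole site of the pair where acetylation was called. The site lay upstream of another annotated Zic4 TSS, with peak centres at -815 bp (Ezh1/2 dKO) and -879 bp (Ezh2 Y726D). It lies at chr9:91276245-91276621 in Ezh1/2 dKO (377 bp, -log10 p of 12.2) and at chr9:91276112-91276627 in Ezh2 Y726D ESCs (516 bp, -log10 p of 16.0), and no H3K27ac peak lay there in Ezh2 KO or Ezh2 R685C ESCs. The same place held a SUZ12 peak in WT (chr9:91276037-91276642), in Ezh2 Y726D (chr9:91276106-91276653) and, as part of a longer peak, in Ezh2 R685C ESCs, and a peak of tagged EZH1 (chr9:91276054-91276648). Its sequence of 22 CpG is printed above. In Ezh2 Y726D ESCs 516 of the 548 bp of the SUZ12 peak lay under H3K27ac, while the SUZ12 peaks of 599 and 619 bp over Zic1 had no acetylated base. The H3K27ac peaks at Zic4 were not long for their lists, 69.3% of the Ezh1/2 dKO list and 59.9% of the Ezh2 Y726D list being as long or longer.

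Zic2 had H3K27ac peaks in all 4 mutant lines and small SUZ12 peaks in WT and Ezh2 Y726D ESCs. H3K27ac of WT was not analysed, and Zic2 carried both in the same line in Ezh2 Y726D ESCs only. Its WT SUZ12 peak of 322 bp (chr14:122875143-122875464) lay 0.539 kb after the TSS, and the H3K27ac peaks of all 4 mutant lines covered all 322 bp. In Ezh2 Y726D ESCs SUZ12 peaks of 593 and 477 bp were called, both wholly under H3K27ac of the same line, and tagged EZH1 gave peaks of 1225 and 300 bp at the same 2 places. No SUZ12 peak was called at Zic2 in Ezh2 KO, Ezh1/2 dKO or Ezh2 R685C ESCs. H3K27me3 covered 369 bp of its promoter window in WT and 652 bp in Ezh2 R685C ESCs. The WT H3K27me3 peak lay 7.35 to 7.845 kb after the main TSS of Zic2, past the annotated end of the gene at 4.47 kb. Promoter H3K27ac covered 2260 bp in Ezh2 KO, 1484 in Ezh1/2 dKO, 4642 in Ezh2 Y726D and 3381 in Ezh2 R685C ESCs. Its partner Zic5 carried no SUZ12 or H3K27me3 peak in any of the 5 lines and 1416 to 5274 bp of H3K27ac. Genome-wide, 29.1% of Ezh2 Y726D SUZ12 peaks overlapped H3K27ac of the same line, against 0.317% in Ezh2 KO, 1.83% in Ezh2 R685C and 4.1% in Ezh1/2 dKO ESCs, and the lists of H3K27ac differ in length as given above.

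Sall1, whose RNA fell in Ezh1/2 dKO and Ezh2 Y726D ESCs, had no SUZ12 or H3K27me3 peak within 5 kb of its TSS in any line, and no peak of tagged EZH1. The Ezh1/2 dKO H3K27me3 list held no peak on chromosome 8 at all. Its promoter H3K27ac covered 4881 bp in Ezh2 KO, 2946 in Ezh1/2 dKO, 6308 in Ezh2 Y726D and 6527 in Ezh2 R685C ESCs. At the TSS itself the peak measured 2637 bp in Ezh2 KO (chr8:91567748-91570384), 469 bp in Ezh1/2 dKO (chr8:91567842-91568310), 3435 bp in Ezh2 Y726D and 4627 bp in Ezh2 R685C ESCs. Over the genome the H3K27ac lists covered 20.5, 11.5, 34.97 and 49.9 Mb in the same order of lines, so the order at Sall1 was the order of the lists. The Sall1 RNA was as low in Ezh2 Y726D as in Ezh1/2 dKO within the spread, with more promoter bases acetylated in the former. H3K27ac of WT was not analysed here.

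Sall4 likewise had no SUZ12 or H3K27me3 peak near a TSS, and its acetylation was among the longest stretches called. H3K27ac covered 9001 bp in Ezh2 KO, 5793 in Ezh1/2 dKO, 9302 in Ezh2 Y726D and 9345 in Ezh2 R685C ESCs. Its longest peak was 7445 bp in Ezh2 KO (rank 4 of 25483 by length) and 9023 bp in Ezh2 R685C ESCs (rank 68 of 41185).

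Sall3 had SUZ12 in WT only, as a peak of 1226 bp before the TSS (chr18:81183961-81185186) and one of 899 bp after it (chr18:81182160-81183058). H3K27me3 covered 2364 bp upstream of the gene in WT and a single peak of 200 bp in Ezh2 R685C ESCs. The downstream SUZ12 peak lay wholly under H3K27ac in all 4 mutant lines. Of the upstream one, 1170 bp were acetylated in Ezh2 Y726D and 522 bp in Ezh2 R685C ESCs, and no base in Ezh2 KO or Ezh1/2 dKO ESCs. Sall3 had the third highest RNA level per kb in WT, from a promoter window of 30 CpG.

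At Sall2 PRC2 lay at the downstream start sites and not at the first one. The WT SUZ12 peaks of 313, 600 and 658 bp lay 12.715 kb and more after the upstream TSS, inside the gene, and H3K27me3 covered 1622 bp of its promoter windows in WT and 3409 bp in Ezh2 R685C ESCs. H3K27ac was called in Ezh2 Y726D ESCs, on 1183 bp in 2 peaks, 1 of which covered 650 of the 658 bp of the WT SUZ12 peak nearest the downstream promoter. No H3K27ac was called at Sall2 in the other 3 mutant lines, and no SUZ12 in any of the 4. Its RNA stood at 39.2 to 41.0 normalized counts in Ezh2 Y726D ESCs, within the WT range.

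**Figure D5:**
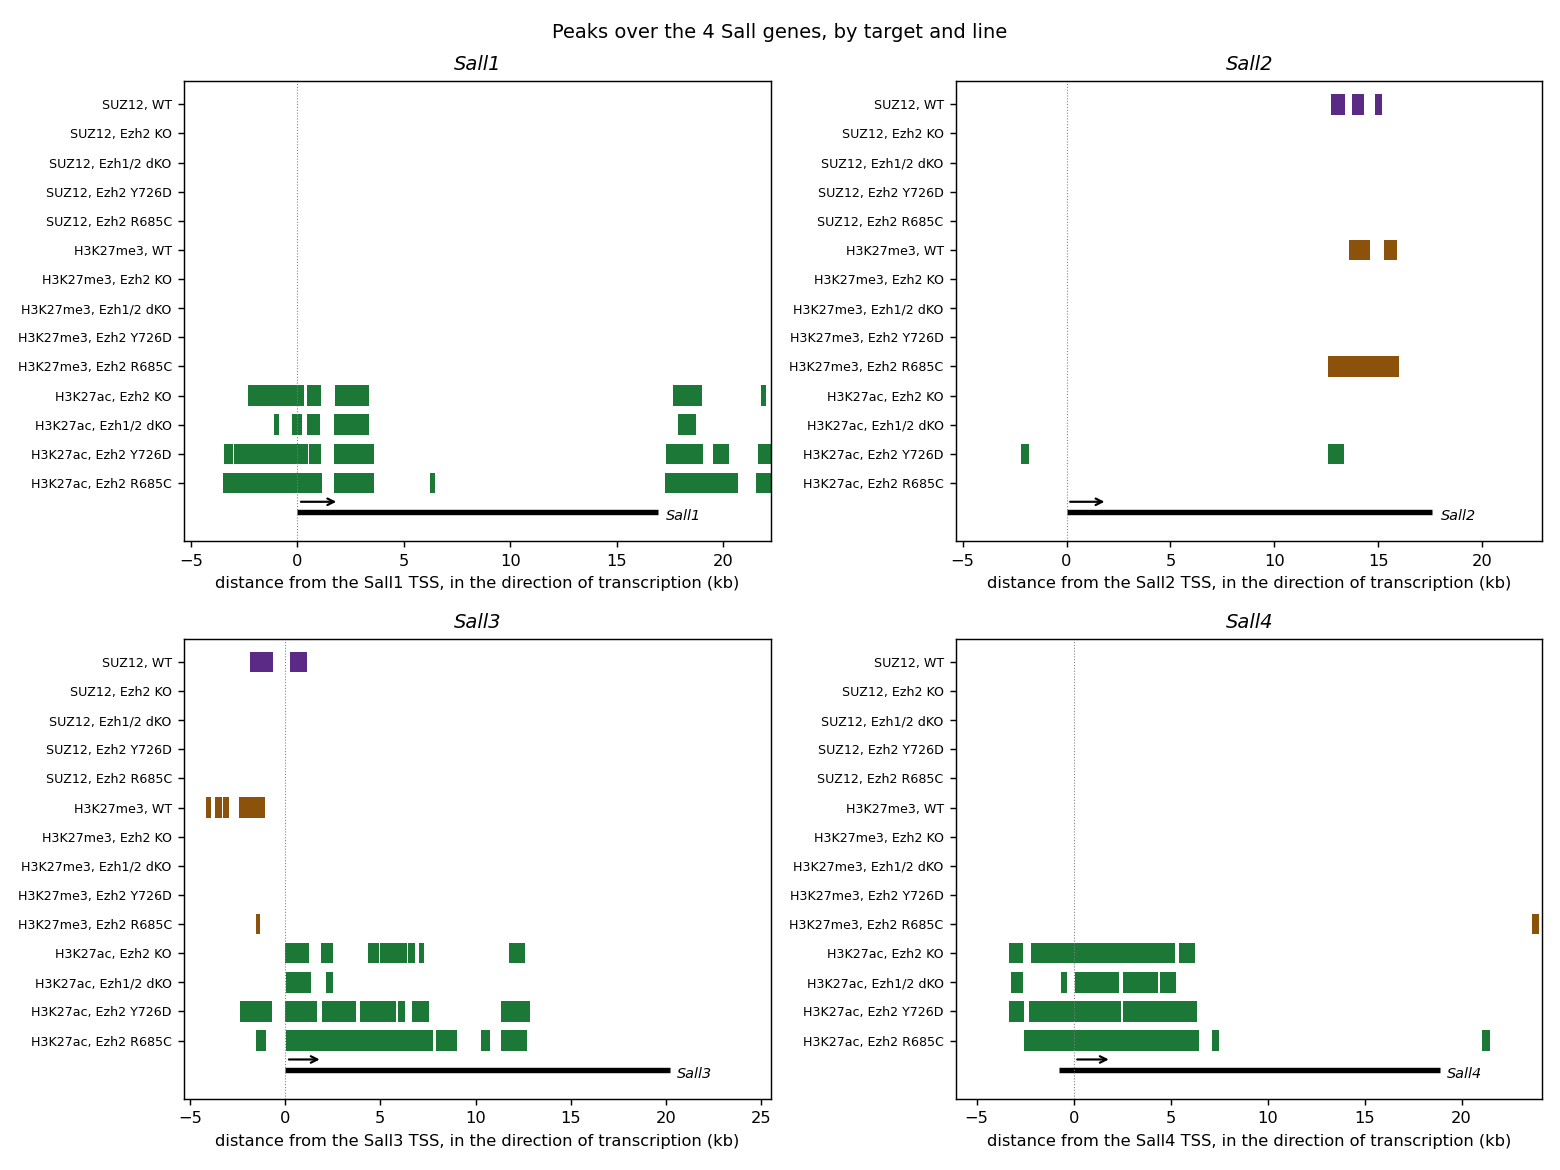
Peaks along Sall1, Sall2, Sall3 and Sall4, with distance from the main TSS in the direction of transcription (kb) on the x axis. Sall1 and Sall4 carry H3K27ac around the TSS in all 4 mutant lines, Sall3 carries SUZ12 and H3K27me3 in WT, and at Sall2 all but 1 of the peaks lie 12.6 kb and more downstream of the first TSS.

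Genes known to act with the 2 families were followed as lists. Of 6 GLI and GLIS genes, the nearest kin of ZIC, 5 were tested, and Gli1, an effector and target of Hedgehog signalling, was called lower in Ezh1/2 dKO ESCs (0.389% of all tested genes were). It stood at 104 and 101.1 normalized counts in WT and 41.2 and 27.5 in Ezh1/2 dKO (log2 fold change -1.58, SE 0.32, limma adjusted p = 0.0391). Gli1 in Ezh2 KO (61.7 and 51.3) and Ezh2 Y726D ESCs (58.0 and 66.0) also lay below WT, without a call. The median of the 5 was -0.06 in Ezh1/2 dKO against WT. All 13 NuRD genes, the corepressor bound by SALL proteins, were tested, and 1 was called, the remodeller Chd3, which rose in Ezh2 Y726D ESCs, as 1.66% of all tested genes did (log2 fold change 1.91, SE 0.42, limma adjusted p = 0.0628, from 48.0 and 18.3 normalized counts in WT to 109.7 and 119.7). Chd3 in Ezh2 KO (73.2 and 84.2) and Ezh1/2 dKO ESCs (61.8 and 79.0) also lay above WT, without a call. The medians of the 13 were -0.15, -0.23 and -0.18 in the 3 mutant lines.

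Of 16 genes of the pluripotency circuit in which SALL4 acts, all tested, 1 was called between any of the lines, Dppa3, a maternal factor that protects DNA methylation. It stood at 176 and 106 normalized counts in WT, 283 and 414 in Ezh1/2 dKO and 21.4 and 20.1 in Ezh2 Y726D ESCs, and so rose in Ezh1/2 dKO (log2 fold change 1.32, SE 0.33, limma adjusted p = 0.0775) and fell by 2.66 in Ezh2 Y726D ESCs (SE 0.33, limma adjusted p = 0.0113), where 3.63% of all tested genes rose and 1.06% fell. Ezh2 Y726D differed from Ezh1/2 dKO by -3.98 (SE 0.33, limma adjusted p = 0.0015).

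Of 20 neural plate and dorsal neural tube factors that act with ZIC, 16 were in the table and 9 were tested. Against WT, 3 rose in Ezh1/2 dKO ESCs (3.63% of all tested genes did), namely Neurog1 (log2 fold change 4.24, SE 0.77), Atoh1 (4.18, SE 0.84) and Olig3 (4.03, SE 0.71), which specify dorsal neural progenitors (limma adjusted p of 0.0282 to 0.0391), and 1, Olig3, rose in Ezh2 Y726D ESCs (4.39, SE 0.71, limma adjusted p = 0.0249), where 1.66% of genes did. Neurog1 had 0 and 1 reads in WT and 27 and 33 in Ezh1/2 dKO, and Atoh1 had 0 and 5 in WT and 51 and 49 in Ezh1/2 dKO ESCs. Olig3 had no read in WT, 20 and 16 in Ezh1/2 dKO and 18 and 22 in Ezh2 Y726D ESCs. Against Ezh2 KO, where 4 of the 9 rose in Ezh1/2 dKO (3.52% of genes), Lmx1a, a roof plate factor, was called beside the same 3, with 2 reads in each Ezh2 KO library and 72 and 126 in Ezh1/2 dKO ESCs (4.78, SE 0.76, limma adjusted p = 0.0162). In WT Lmx1a had 28 and 6 reads, between those of Ezh2 KO and Ezh1/2 dKO, and it was not called against WT. Of 15 kidney and limb factors that act with SALL, 14 were in the table and 8 tested, and against WT 1 rose, Tbx5, a factor of forelimb and heart, in Ezh1/2 dKO ESCs (2.88, SE 0.72, limma adjusted p = 0.0738, from 1.33 and 9.63 to 30.5 and 41.7 normalized counts). Against Ezh2 KO, Pax8, a kidney and thyroid factor, rose in Ezh2 Y726D ESCs (2.98, SE 0.61, limma adjusted p = 0.0443), where 2.31% of genes did, with 1 read in each Ezh2 KO library and 17 and 13 in Ezh2 Y726D ESCs. The fitted changes of these genes with few reads in WT or Ezh2 KO depend on the added 1. Genes of both lists that passed the filter through the lines in which they are high had to differ, so their counts support no statement on the lists.

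Across the 8 libraries, the genes whose log2 level followed each member most closely were Senp1, Cbx5 and Ahdc1 for Sall1 (r of 0.973, 0.963 and 0.962), Cdv3, Pa2g4 and Cltb for Sall4 (0.985, 0.984 and 0.980), Ints6, E430025E21Rik and 4930500J02Rik for Sall3 (0.992, 0.976 and 0.969), Vav1, Creb3l1 and C1qtnf4 for Sall2 (0.979, 0.961 and 0.957), Zbtb41, Lims1 and Txlnb for Zic2 (0.980, 0.948 and 0.944), and Xpo1, Memo1 and Eif2s1 for Zic5 (0.978, 0.973 and 0.972). These are the highest of 13872 genes over 8 libraries in 4 lines and are given as a description. Senp1 stood at 463 and 479 normalized counts in WT, 420 and 440 in Ezh2 KO, 386 and 341 in Ezh1/2 dKO and 394 and 348 in Ezh2 Y726D ESCs, a narrower range than that of Sall1.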

How the data were processed

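RNA-seq and ChIP-seq of mouse ESCs were used as deposited. For RNA-seq, the authors aligned reads to mm9 with TopHat, counted them per RefSeq gene without strand with HTSeq-count and divided them by DESeq2 size factors, so that the deposited signal is a normalized count per gene and library. Of these values, 100% were whole multiples of 1 read (tolerance 1e-06). For ChIP-seq, the authors used Bowtie for alignment, Picard to discard duplicates and MACS2 for peaks, and the deposited lists give the -log10 p of each peak. The HA lists were used as positions only, so the limit on p was not applied to them. Depth was 3604123 to 5181553 reads on genes for RNA and is unknown for the peak lists.

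log2(normalized count + 1) of genes with a mean of at least 5 was fitted over all 8 libraries with limma 3.58.1 (trend, R 4.3.3), with Benjamini-Hochberg adjustment over 13872 genes. edgeR 4.0.16 and DESeq2 1.42.0 on the recovered reads, other pseudocounts, filters, scalings and single libraries left out were alternatives. Against WT, edgeR called 516 genes higher and 52 lower in Ezh1/2 dKO, 200 and 127 in Ezh2 Y726D, and 7 and 23 in Ezh2 KO ESCs. Peaks were placed with Python 3.11.15 on the mm9 (NCBIM37) annotation over 15591 protein-coding genes with 1 locus, at an overlap of 1 bp. Fits were tested on simulated data first. The members and the lists were chosen with earlier results of these data known. The genes named are all members, Ezh1 and Ezh2, up to 3 called genes per list and comparison, and the 3 genes most correlated with each tested member. Lists of H3K27me1, H3K27me2 and ATAC-seq held 0 to 114 peaks of p at most 1e-10, with none near the members on the chromosomes they cover. The chromosome of Sall1 was missing from 4 of these lists and that of Sall3 from 2. RING1B, H2AK119ub, WT H3K27ac, rescue lines with EZH2 and treated cells were not analysed here. Labels that name Y726D but not the Ezh1 knockout were read as the same line. Another gene chosen for naming and a promoter sequence are not reported here.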

Additional observations from a re-analysis of the deposited data

How the results depend on the processing

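Of the recomputed log2 fold changes of members, 291 kept their direction and their side of the thresholds, 15 turned, 7 were lost and 2 gained. With quantile normalization 0 members were called in Ezh1/2 dKO against WT, with only the libraries compared 0 in Ezh2 Y726D against WT, and without a limit on the fold 1 member, Sall1, was called in each of Ezh1/2 dKO and Ezh2 Y726D against Ezh2 KO. The adjusted p of the latter rose over 0.1 with quantile normalization (limma adjusted p of 0.189 and 0.116), and in Ezh2 Y726D also with no filter (0.102). Leaving out 1 library gave 0 to 1 called members in each of the first 2 comparisons. The direction of Sall2 in Ezh1/2 dKO turned to 0.066 with upper-quartile rescaling and 0.0046 with edgeR, that of Sall2 in Ezh2 Y726D to -0.090 and that of Sall4 to 0.11 with quantile normalization. Leaving out single libraries gave log2 fold changes of -1.13 to 0.14 for Zic5 in Ezh2 KO, -1.22 to 0.056 for Zic5 and -0.14 to 0.12 for Sall2 in Ezh1/2 dKO, and -0.11 to 0.15 for Sall2, -0.80 to 0.025 for Sall3 and -0.33 to 0.18 for Sall4 in Ezh2 Y726D, and -0.26 to 0.23 for Sall1 between Ezh2 Y726D and Ezh1/2 dKO. A lone library is then assumed to vary like the other lines. The cause of these turns was not tested. Quantile normalization moved the calls over all genes in Ezh1/2 dKO from 503 higher and 54 lower to 290 and 129, DESeq2 moved those in Ezh2 KO from 13 and 43 to 46 and 103, and only the libraries compared moved those in Ezh2 Y726D from 230 and 147 to 20 and 12. With a replicate block the number of called members stayed at 1 in Ezh1/2 dKO and 1 in Ezh2 Y726D, Sall1 with limma adjusted p of 0.0541 and 0.0644, and against Ezh2 KO the block took the Sall1 adjusted p over 0.1 (limma, 0.111 in Ezh1/2 dKO and 0.102 in Ezh2 Y726D). Deviations of libraries with the same replicate number correlated at -0.41 to -0.07 between WT and the other lines and at 0.22 to 0.29 among the 3 mutant lines. Whether libraries shared a batch, under the same number or another, was not tested, and the main fit used no block.

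SUZ12 in WT lay at 3 members at a p of at most 1e-20. H3K27me3 in WT lay at 2 within 1 kb of a TSS, 2 at 1e-20 and 3 with 1 TSS a gene, a choice made after seeing the data. H3K27me3 in Ezh2 Y726D lay at 0 under each of these and with an overlap of 500 bp, which left 3 in Ezh2 R685C. The other 61 recomputed peak counts stayed within 1.5 times of the reported ones, among them SUZ12 in Ezh2 Y726D at 2 members at 1e-20 and in Ezh2 R685C at 3 within 10 kb. The unknown depth of the peak lists limits what a missing peak shows, and 2 libraries per line limit the RNA tests.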
